A study of Mus musculus with 36 samples.

Results

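Collagen chain genes encode the polypeptides that assemble into the collagens, the fibers, sheets and anchors of the extracellular matrix. They were taken here as every protein-coding gene of the GENCODE mouse annotation (release M21, GRCm38) whose symbol is Col, a number, the letter a and a number. This gave 44 of the 52636 genes counted, and all 44 were found by their Ensembl IDs. RNA sequencing covered 36 libraries, with 3 libraries for each of 12 genotypes. The first set was whole intestines of untreated E18.5 embryos that were Mlkl KO (controls), Casp8 D387A KI with intact Mlkl, or Casp8 D387A KI with Cflar KO and Mlkl KO. The same set held this last genotype with Casp1 KO, with Casp1 KO and Ifnar1 KO, and with Casp1 KO and Fadd KO. The next set was E18.5 intestines that were Mlkl KO (its own controls), Casp8 C362A KI with Mlkl KO, Casp8 C362A KI with KO of Mlkl and Casp1, or Casp8 C362A KI with KO of Cflar and Mlkl. The last set was mouse embryonic fibroblasts (MEFs), either Mlkl KO or Casp8 D387A KI with KO of Cflar and Mlkl.

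Casp8 encodes the protease caspase-8, which starts apoptosis. The D387A change blocks its cleavage between the catalytic subunits, and the C362A change removes the catalytic cysteine. Cflar encodes cFLIP, the partner of caspase-8, and Fadd the adaptor that recruits both. Mlkl encodes the effector of necroptosis, Casp1 the protease caspase-1 of pyroptosis, and Ifnar1 a chain of the type I interferon receptor. All groups other than Casp8 D387A KI lacked Mlkl, so that group differed from the controls at both Casp8 and Mlkl. Sample titles of the first set open with a number that the controls share only with Casp8 D387A KI Cflar KO Mlkl KO. Each other genotype of that set has its own number, and the titles do not say what it stands for. In comparisons across these title numbers, genotype and number cannot be told apart. The alleles are carried by every cell of the embryo, and a whole intestine mixes epithelium, connective tissue, muscle, nerve, vessels and blood. MEFs were prepared from embryos stripped of the head and internal organs, and the labels do not say whether their replicates were separate embryos, so p-values there may measure technical spread. Below, genotypes are written without Casp8, as in D387A Cflar-/- Mlkl-/-, and Mlkl-/- without an allele name means the controls of the set in question.

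A collagen chain is defined by a repeat of glycine followed by a pair of other residues, often proline and hydroxyproline, and chains wind together into a rope-like helix through this repeat. Fibril-forming chains have a long unbroken repeat and pack into the fibers of connective tissue. Basement membrane chains have interruptions and join into the sheet beneath epithelium and around muscle and vessels. Other chains form beaded filaments, decorate fibrils, span the cell membrane or tether the epithelial basement membrane to the tissue below it. In the gut wall, fibroblasts and smooth muscle are the main known makers of the fibril-forming chains.

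The genes share an exon pattern that their names do not state. In the longest complete coding transcript of each gene, 469 of 1916 internal coding exons (24.5%) were exactly 54 bases long, against 697 of 156507 (0.445%) in the other protein-coding genes. A 54-base exon holds 18 codons, or 6 repeats. Lengths that are multiples of 9 made up 63.9% of internal coding exons in collagen genes and 13.7% in the others. At least 1 exon of 54 bases was present in 40 of the 44 genes. The 7 exons below come from the genes whose transcript levels are described most closely, plus Col1a1 and Col4a1 as abundant chains of the fibrils and of the basement membrane. They were read from the GENCODE transcripts 5′ to 3′ and carry the glycine codons in capitals.
Col1a1, coding exon 8 of 51, chr11:94939904-94939957, plus strand: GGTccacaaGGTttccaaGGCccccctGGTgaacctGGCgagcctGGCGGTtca
Col5a3, coding exon 15 of 67, chr9:20801068-20801121, minus strand: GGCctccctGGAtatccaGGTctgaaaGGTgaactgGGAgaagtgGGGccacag
Col12a1, coding exon 54 of 65, chr9:79614349-79614402, minus strand: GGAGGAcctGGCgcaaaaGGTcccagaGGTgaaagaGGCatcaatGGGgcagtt
Col7a1, coding exon 48 of 118, chr9:108967172-108967225, plus strand: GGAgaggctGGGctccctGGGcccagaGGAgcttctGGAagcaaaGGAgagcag
Col6a5, coding exon 12 of 39, chr9:105918186-105918239, minus strand: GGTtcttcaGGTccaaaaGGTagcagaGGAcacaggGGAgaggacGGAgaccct
Col4a1, coding exon 7 of 52, chr8:11245211-11245264, minus strand: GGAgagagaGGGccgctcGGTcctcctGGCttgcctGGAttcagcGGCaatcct
Col4a3, coding exon 7 of 52, chr1:82651254-82651307, plus strand: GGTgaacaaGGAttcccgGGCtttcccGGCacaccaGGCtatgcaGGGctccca

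Each is the first 54-base coding exon of its gene that starts on a whole codon and has a glycine codon at the start of every repeat. That glycine opens all 7 exons is therefore fixed by this choice, and where other exon boundaries fall within the repeat was not counted. In the Col1a1 and Col12a1 exons 2 neighboring glycine codons stand side by side, because glycine can also fill another place of the repeat. The use of 54-base exons differed by class. The 11 fibril-forming genes had 21 to 33 of them each, and the longest unbroken run of the repeat in their translated transcripts was 216 to 344 triplets. The 6 basement membrane genes had 1 to 3, with longest runs of 39 to 66 triplets, although their total of 427 to 451 triplets was the higher one. The 9 fibril-associated genes had 4 to 28, the 6 microfibril genes 2 to 3, the 4 transmembrane genes 3 to 4 and the 2 endostatin-bearing genes 1 to 3. The 3 short-chain genes Col8a1, Col8a2 and Col10a1 had none, since each codes its protein in 2 exons. Col7a1, whose chain builds anchoring fibrils, had 118 coding exons, 6 of them 54 bases long, and 475 triplets in 2944 residues.

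**Figure D1:**
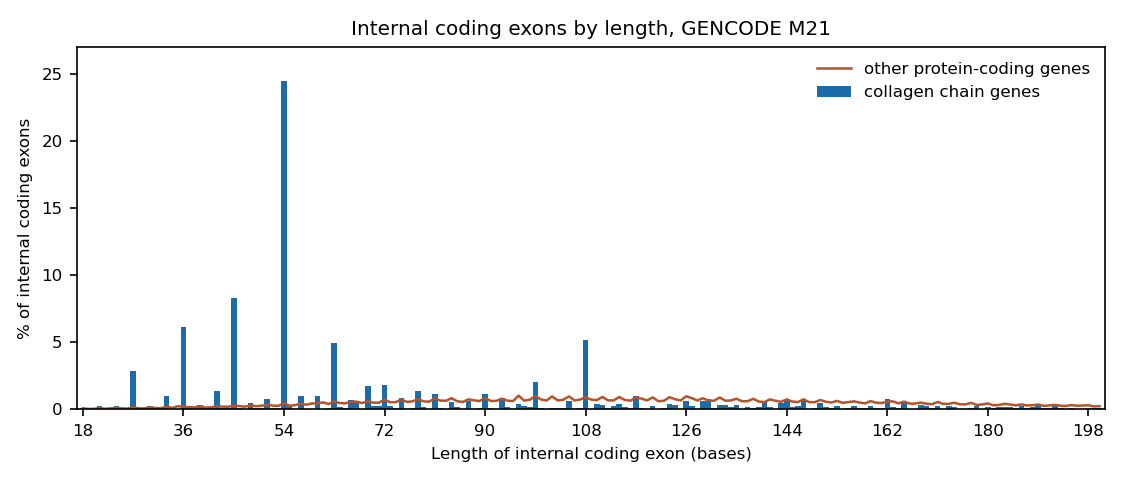
Share of internal coding exons (percent, vertical axis) by exon length in bases (horizontal axis), with bars for the 44 collagen genes and a line for the other protein-coding genes of the annotation. The collagen bars peak at 54 bases, where they reach 24.5% against 0.445% in the other genes.

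Several members are neighbors in the genome. The 6 basement membrane genes lie in 3 pairs that start head to head. Col4a1 and Col4a2 on chromosome 8 have starts 21 bases apart and overlapping first exons, Col4a3 and Col4a4 on chromosome 1 are separated by 71 bases, and Col4a5 and Col4a6 on chromosome X by 1308 bases. Reads in an overlap of opposite strands cannot be assigned without strand information, and how strand was treated in the counting was not given in the sources used here. The stretch shared by Col4a3 and Col4a4 is printed because both genes fell in D387A Cflar-/- Mlkl-/- intestines and in C362A intestines with and without Cflar. It lies at chr1:82586850-82586920 (GRCm38), was read on the minus strand, the strand of Col4a4, and is 69.0% G or C. The printed bases run from the Col4a3 side towards Col4a4, and their label names the pair without giving the direction.
Col4a4 to Col4a3: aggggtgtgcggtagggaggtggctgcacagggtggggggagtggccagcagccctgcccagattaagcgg
Col6a4, Col6a5 and Col6a6 form a row on chromosome 9 in the same direction, 28810 and 27917 bases apart. Col6a1 and Col6a2 lie 85161 bases apart on chromosome 10, and Col3a1 and Col5a2 meet tail to tail on chromosome 1 with 24614 bases between them.

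RefSeq promoters, taken as the 250 bases before a start, were found for 35 of the 44 genes (38 starts). The letters GGGCGG, searched on both strands, were present in 22 of the 38 (57.9%) and in 32.7% of all 32851 promoters. CCAAT was present in 34.2% against 33.9%, TATAAA in 13.2% against 12.4%, TGANTCA in 2.63% against 6.75% and TTCNNNGAA in 5.26% against 7.02%. Shown are the promoters of the fibril-forming gene with the largest rise and of the gene with the largest fall below, with CCAAT and GGGCGG in capitals on either strand (GRCm38.p6, 5′ to 3′).
Col5a3, chr9:20815068-20815317, minus strand: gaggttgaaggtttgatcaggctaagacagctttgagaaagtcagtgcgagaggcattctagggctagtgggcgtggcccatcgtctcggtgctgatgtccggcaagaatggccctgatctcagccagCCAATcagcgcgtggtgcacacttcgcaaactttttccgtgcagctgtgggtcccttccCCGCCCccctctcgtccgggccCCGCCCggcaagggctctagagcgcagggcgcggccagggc
Col7a1, chr9:108953336-108953585, plus strand: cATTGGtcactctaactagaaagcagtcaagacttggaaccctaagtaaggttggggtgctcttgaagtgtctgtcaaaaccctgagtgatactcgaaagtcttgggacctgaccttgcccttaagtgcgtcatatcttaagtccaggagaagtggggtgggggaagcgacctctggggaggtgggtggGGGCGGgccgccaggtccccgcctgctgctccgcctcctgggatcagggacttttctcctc
Both promoters hold both words. A match of letters is a description of the sequence only.

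Reads on genes numbered 17943524 to 27721024 per library in the D387A intestines, 21757868 to 31052238 in the C362A intestines and 20927014 to 32307629 in the MEFs. Transcripts of the deleted genes were lower in the knockout libraries for Casp1 (0 to 0.218 CPM against 0.501 to 137 in the other libraries), Ifnar1 (32.5 to 38.9 against 71.5 to 123) and Fadd (0.615 to 0.943 against 14.3 to 47.8). Counts over the whole gene do not check the Cflar and Mlkl deletions, since Cflar ranged from 37.6 to 60.1 CPM with and 41.7 to 90.0 CPM without the knockout, and Mlkl from 2.03 to 58.4 against 10.1 to 13.0. Epithelial markers summed to 3964 to 4474 CPM in the D387A-set controls, and enterocyte markers were near 0 in MEFs, at most 0.515 CPM in sum with 5 of 7 at 0 in all MEF libraries. The C362A-set controls were uneven, with replicate 1 highest in most collagens, and replicate 3 of D387A Cflar-/- Mlkl-/- Casp1-/- stood apart from its group over all genes. It differed from replicates 1 and 2 by 75.5 and 77.2 times the sampling noise, against 14.3 between those, and Col6a6, Col23a1, Col5a3 and Col8a1 were among the collagens concerned. Replicate 3 of C362A Cflar-/- Mlkl-/- also stood apart (72.7 and 71.9 against 26.6 between replicates 1 and 2). So did replicate 1 of the group with Casp1 and Ifnar1 loss (37.2 and 32.6 against 5.91). Without either library, all collagen calls within its set were kept (29 of 29 and 25 of 25). Changes of calls when a library is left out are given with the results or as ranges at the end.

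Levels are given as RPKM, reads scaled by gene length and by a library size set within each of the 3 sets. In the D387A-set controls the collagens spanned a wide range. The fibril-forming Col1a1, a chain of type I collagen, was at 213, 222 and 215 RPKM, Col3a1 of type III at 234, 262 and 283, and Col1a2 at 146, 157 and 151. The basement membrane chain Col4a1 was at 123, 130.1 and 128 RPKM, and Col6a1 of the beaded microfibrils at 126, 133 and 127. These 5 genes were those with a mean above 100 RPKM over the D387A intestines, while 15 members were at 1 RPKM or less. Genes that led the other classes in the mean over all 36 libraries stood in these controls at lower levels, Col18a1 (20.2, 21.6 and 20.8 RPKM), Col12a1 (8.14, 9.57 and 9.79), Col23a1 (8.67, 9.04 and 8.79), Col8a1 (4.05, 4.56 and 5.06) and Col7a1 (2.29, 3.08 and 2.21). Within its class, Col12a1 was led in these controls by Col16a1, at 16.8, 18.6 and 19.0 RPKM. Col3a1 was above Col1a1 in every control library, whereas the order of Col4a1 and Col6a1 does not stand out from the spread, since their ranges overlap. Control MEFs, set beside them without a test because the sets were scaled separately, had Col1a1 at 1864, 1436 and 1826 RPKM and Col12a1 at 276, 264 and 315. The microfibril genes Col6a4 and Col6a5 ran the other way, at 41.5 to 47.9 and 13.2 to 18.53 RPKM in D387A-set control intestine and 0.0757 to 0.126 and 0.0100 to 0.0632 in control MEFs.

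Collagen genes together took 0.789% ± 0.0529 of gene reads in the D387A-set controls (SD, n = 3) and 4.13% ± 0.253 in control MEFs. The share was 0.665% ± 0.0448 in D387A intestines, 1.14% ± 0.0415 in D387A Cflar-/- Mlkl-/-, 0.885% ± 0.0773 with Casp1 loss added, 0.636% ± 0.0585 with Casp1 and Ifnar1 loss and 0.654% ± 0.0650 with Casp1 and Fadd loss. The 3 D387A Cflar-/- Mlkl-/- libraries did not overlap any other group of the set. All libraries of D387A (0.616% to 0.704%), of the group with Casp1 and Ifnar1 loss (0.597% to 0.703%) and of that with Casp1 and Fadd loss (0.589% to 0.719%) lay below all controls (0.728% to 0.828%). In the C362A set the share was 0.570% ± 0.174 in controls, 0.539% ± 0.0550 in C362A Mlkl-/-, 0.303% ± 0.0576 in C362A Mlkl-/- Casp1-/- and 0.622% ± 0.118 in C362A Cflar-/- Mlkl-/-. The C362A controls spread so widely that only C362A Mlkl-/- Casp1-/- lay outside them. MEF mutants were at 3.94% ± 0.0652. With 3 libraries against 3, an exact permutation test cannot give a p under 0.1, so no p is given for these shares.

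**Figure D2:**
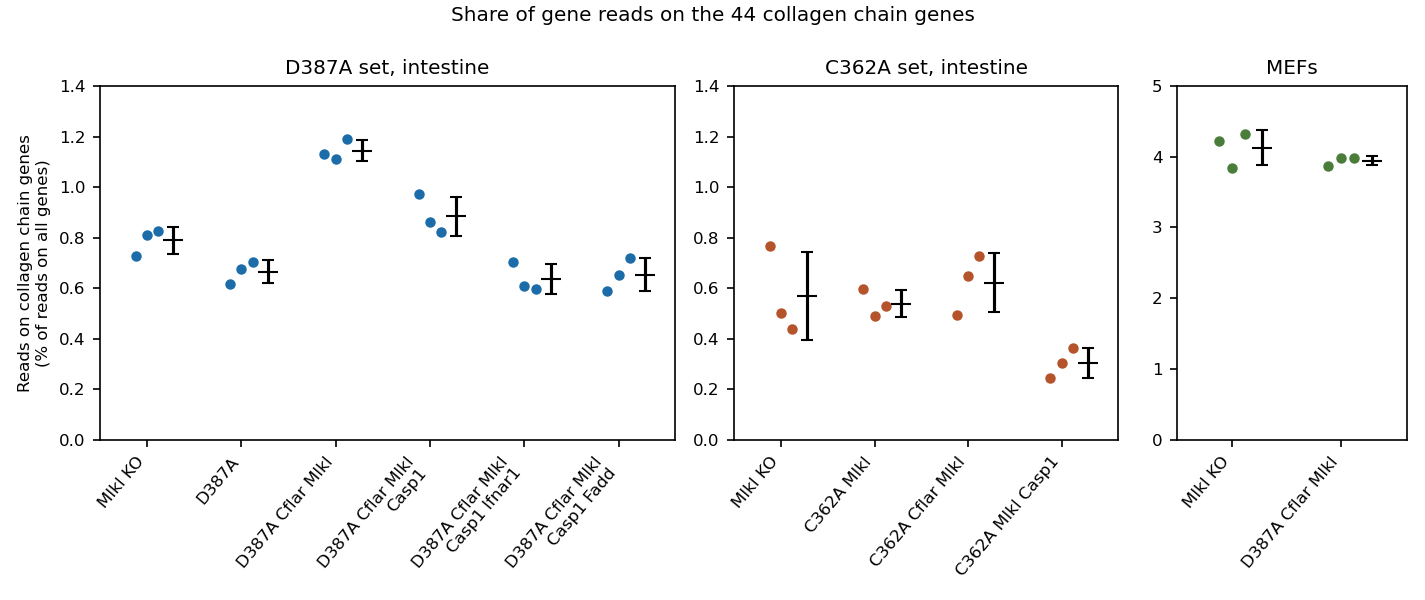
Percent of reads on genes that fell on the 44 collagen genes (vertical axis, starting at 0) in each library, by genotype (horizontal axis), in 3 panels for the D387A intestines, C362A intestines and MEFs. Points are libraries, and bars show the mean and SD of 3. The D387A Cflar-/- Mlkl-/- libraries lie above every other D387A-set library, and C362A Mlkl-/- Casp1-/- libraries lie below their controls.

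Genes were tested with edgeR's quasi-likelihood test and Benjamini-Hochberg adjustment over all genes tested in a set, and a gene was called when the adjusted p was under 0.05 and the log2 fold change above 1 or below -1. In both intestine sets 41 of the 44 members passed the filter on low counts. Col2a1 and Col10a1 (cartilage chains) and Col19a1 (a fibril-associated chain) did not. Comparisons with the same Mlkl-/- libraries share those controls, so their values are set side by side and not as repeats of each other.

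D387A intestines with intact Mlkl had no collagen gene called against the controls, although their share of collagen reads lay below that of every control. Col7a1 was at 3.88, 3.78 and 2.96 RPKM against 2.29, 3.08 and 2.21, and Col1a1 at 172, 197 and 218 against 213, 222 and 215. By edgeR 0 of 41 members were called higher or lower, as were 0% and 0.00545% of all 18360 genes tested, and the counts at adjusted p under 0.05 alone were the same for members and for all genes. At an unadjusted p under 0.05, 0 members were higher and 12 lower, and limma-voom and DESeq2 also called 0. The median log2 fold change of members was -0.16, against 0.02 over all genes tested. Enterocyte markers summed to 52410 to 54360 against 43140 to 49810 CPM and broad epithelial markers to 4753 to 4970 against 3964 to 4474 CPM, with 0 of 7 past the adjusted p in either list. Cartilage and bone markers (14.39 to 15.12 against 10.6 to 13.01 CPM) and pancreatic acinar markers (33.53 to 36.56 against 37.36 to 70.36 CPM) had no gene past it either. Their part in the collagen values was not tested.

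D387A Cflar-/- Mlkl-/- intestines had more Col1a1, Col1a2, Col4a1 and Col4a2 RNA and much less RNA of a handful of scarcer chains, above all Col7a1. Of 41 members tested, 2 were called higher and 4 lower, where 9.4% and 12.8% of all genes were. At adjusted p under 0.05 alone 15 members were higher and 13 lower, where 29.9% and 29.5% of all genes were, so the shares of members called stood below those of all genes, and the shares at adjusted p alone were near them. The median member stood at -0.05 on the log2 scale, against -0.0065 over all genes. Fewer cells of a type and less RNA per cell cannot be told apart in these bulk libraries, here or in later comparisons.

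Among the fibril-forming genes, Col5a3, a minor chain that joins type V collagen, had 3.77, 3.21 and 2.88 RPKM in D387A Cflar-/- Mlkl-/- and 1.07, 1.53 and 1.56 in controls. All 3 mutants lay above all 3 controls, with a log2 fold change of 1.24 ± 0.23 (SE, edgeR adjusted p = 0.000156). Col1a1 was at 288, 327 and 293 RPKM, again above every control, and rose by a smaller step of 0.48 ± 0.12 on the log2 scale (edgeR adjusted p = 0.00184). Col3a1, the most abundant chain of this set's controls, was at 312, 265 and 306 RPKM against 234, 262 and 283, with ranges that overlap and a log2 fold change of 0.18 ± 0.12 (edgeR adjusted p = 0.189). Col5a1 (0.48), Col5a2 (0.44) and Col1a2 (0.26) also rose at adjusted p under 0.05, whereas Col27a1 (-0.58) and Col24a1 (-0.52), a pair of long minor fibrillar chains, fell. This made 5 higher and 2 lower of the 10 fibril-forming genes tested.

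The basement membrane genes split by their genomic pairs. Col4a1, which forms the ubiquitous network with Col4a2, was at 190.1, 189 and 211 RPKM in the mutants against 123, 130.1 and 128 (0.63 ± 0.10, edgeR adjusted p = 3.53e-05), and Col4a2 rose by 0.77. The chains of restricted membranes fell. Col4a4 was at 0.0427, 0.0442 and 0.0593 RPKM against 0.175, 0.276 and 0.183 in controls, from 10, 10 and 15 reads against 35, 53 and 37. The groups did not overlap, and the log2 fold change was -2.09 ± 0.30 (edgeR adjusted p = 1.03e-05). Its neighbor Col4a3 rested on 5, 16 and 4 reads against 17, 21 and 16 (-1.35 ± 0.50, edgeR adjusted p = 0.0274), and its adjusted p was 0.103, 0.121 and 0.085 without mutant replicate 1, mutant replicate 3 or control replicate 2. Col4a5 and Col4a6 both fell by 0.82 on the log2 scale.

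The microfibril genes split in the same manner between the common and the restricted chains. Col6a1 was at 153, 156 and 155 RPKM against 126, 133 and 127 and rose by 0.27 ± 0.09 (edgeR adjusted p = 0.0144), with Col6a3 at 0.37 and Col6a2 at 0.24. Col6a5, which can take the place of Col6a3 in the trimer, was at 3.44, 4.18 and 2.86 RPKM against 13.2, 18.53 and 13.98. Mutants and controls were far apart, with a log2 fold change of -2.13 ± 0.20 (edgeR adjusted p = 8.78e-08). Its neighbors on chromosome 9 fell less, Col6a6 by 0.92 and Col6a4 by 0.83 on the log2 scale.

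Among the remaining classes, Col12a1, a chain that coats fibrils in tissue under tension, was at 16.5, 19.1 and 19.9 RPKM against 8.14, 9.57 and 9.79. All mutants lay above all controls, with a log2 fold change of 1.01 ± 0.12 (edgeR adjusted p = 7.93e-07), and the value was 0.99, 0.96 and 0.94 without mutant replicate 2, mutant replicate 3 or control replicate 1, just under the fold threshold. The short-chain gene Col8a1, made by vessels and smooth muscle, was at 7.08, 9.17 and 8.02 RPKM against 4.05, 4.56 and 5.06 (0.83 ± 0.20), and the other short-chain gene tested, Col8a2, rose by 0.51. Col18a1, the precursor of endostatin, was at 35.7, 30.3 and 36.2 RPKM against 20.2, 21.6 and 20.8 and rose by 0.71 ± 0.10. The transmembrane gene Col23a1 was at 5.95, 6.53 and 5.79 RPKM against 8.67, 9.04 and 8.79 and fell by 0.54 on the log2 scale, as did the transmembrane Col13a1 by 0.35 and the fibril-associated Col9a2 by 0.70. Col28a1, a chain expressed with peripheral nerve, rose by 0.75. By class, 1 fibril-associated gene was higher and 1 lower of 8 tested, 2 of 4 transmembrane genes were lower, 1 of 2 endostatin-bearing genes was higher, and 1 was higher and 1 lower of the 3 other genes. Col7a1, the anchoring fibril chain made mainly by epithelium, had the largest change of any member here. It was at 0.229, 0.232 and 0.285 RPKM in mutants and 2.29, 3.08 and 2.21 in controls, a log2 fold change of -3.34 ± 0.28 (edgeR adjusted p = 2.45e-08).

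Markers of cell types moved with these groups. Summed enterocyte markers were at 43140 to 49810 CPM in controls and 1587 to 3497 in D387A Cflar-/- Mlkl-/-, with 6 of 7 called lower, while the broad epithelial markers were at 3964 to 4474 and 4810 to 5171 CPM. Smooth muscle markers were at 5299 to 5758 and 7289 to 9098 CPM, with 6 of 8 higher at adjusted p under 0.05. Fibroblast markers were at 469.5 to 479.7 and 484.5 to 542 CPM, with 5 of 8 higher and 2 lower. Endothelial markers (379.6 to 474 against 335.2 to 370.7 CPM, 3 of 6 higher), macrophage markers (5 of 6 higher and 1 lower, with a sum of 285.9 to 384.5 against 387.3 to 415.5 CPM) and mesothelial markers (2 of 4 higher, 1 lower) also moved, as did enteric neuron and glia markers (139.4 to 153.4 against 191.7 to 205.8 CPM, 2 of 7 lower) and pancreatic acinar markers (6.303 to 18.23 against 37.36 to 70.36 CPM, 2 of 4 lower). Cartilage and bone markers summed to 3.129 to 4.923 against 10.6 to 13.01 CPM, with 1 of 2 tested lower. What part these markers had in the collagen values was not tested.

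**Figure D3:**
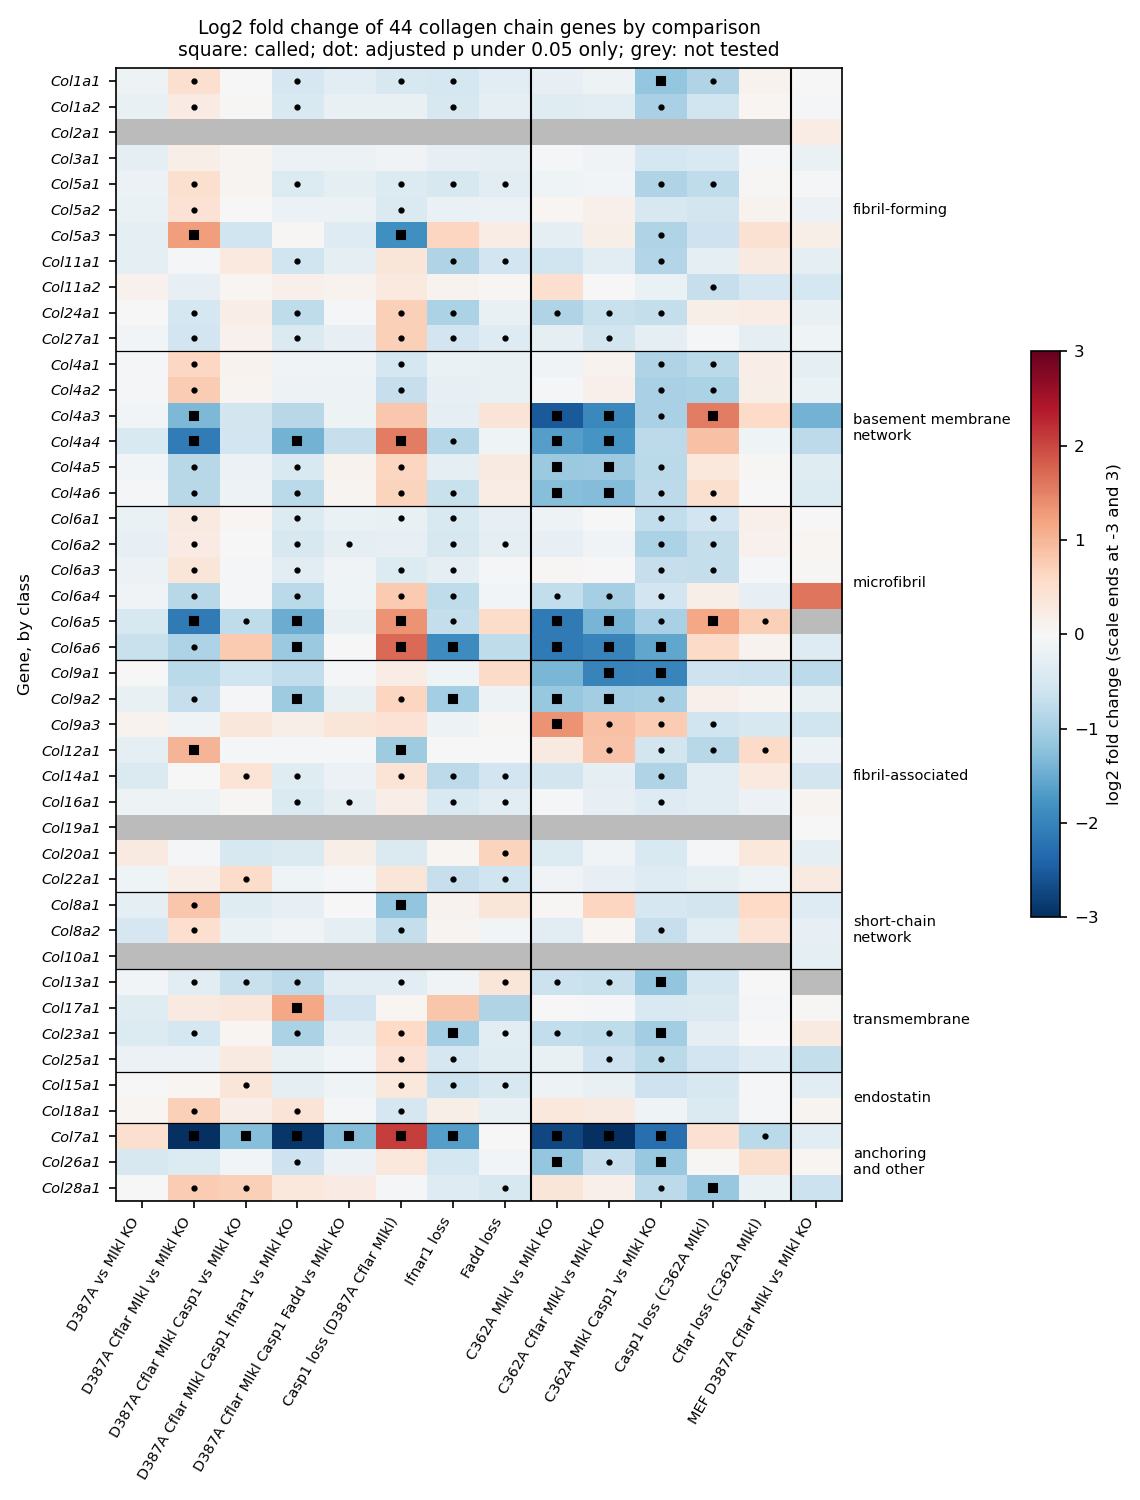
Log2 fold change (color, blue lower and red higher) of the 44 collagen genes (rows, ordered by class) in 14 comparisons (columns). A square marks a called gene, a dot an adjusted p under 0.05 only, and gray a gene not tested. Col7a1 is blue in every comparison of a Cflar-/- or C362A intestine with its Mlkl-/- controls, and the column of the MEFs holds no mark.

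Addition of Casp1 loss to D387A Cflar-/- Mlkl-/- came with more Col7a1, Col6a6, Col4a4 and Col6a5 and less Col5a3, Col8a1 and Col12a1. The groups compared carry different title numbers, so Casp1 loss and number cannot be told apart. The comparison shares the D387A Cflar-/- Mlkl-/- libraries with the one before it, so opposite signs in the pair are not independent. By edgeR 4 members were called higher and 3 lower, where 8.88% and 4.51% of all genes were, and 14 were higher and 13 lower at adjusted p under 0.05 alone, where 24.5% and 22.5% were. Members had a median of 0.22 on the log2 scale, against 0.03 over all genes. Col7a1 was at 0.880, 1.49 and 0.768 RPKM, above all 3 D387A Cflar-/- Mlkl-/- libraries (2.07 ± 0.28, edgeR adjusted p = 1.53e-05). Col6a5 was at 9.57, 9.24 and 7.96 RPKM (1.35 ± 0.20, edgeR adjusted p = 2.76e-05). Both genes were higher in every library than in any D387A Cflar-/- Mlkl-/- library.

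The largest rises after Col7a1 were in Col6a6 and Col4a4. Col6a6 was at 0.972, 0.843 and 0.343 RPKM against 0.297, 0.190 and 0.179 (1.70 ± 0.31, edgeR adjusted p = 0.000219), with replicate 3 much closer to the comparison group than the other replicates. Col4a4 was at 0.126, 0.173 and 0.127 RPKM against 0.0427, 0.0442 and 0.0593 (1.53 ± 0.30, edgeR adjusted p = 0.000562). The groups did not overlap for either gene. Of the chains that fell, Col5a3 was at 0.825, 0.676 and 1.27 RPKM (-1.83 ± 0.23, edgeR adjusted p = 7.04e-06) and Col8a1 at 2.95, 2.60 and 5.10 (-1.19 ± 0.20, edgeR adjusted p = 0.00014). Col12a1 was at 8.88, 7.64 and 10.1 RPKM (-1.06 ± 0.12, edgeR adjusted p = 1.15e-06), and its fold change was -0.97 without D387A Cflar-/- Mlkl-/- Casp1-/- replicate 2. Each of these 3 genes was lower in every library than in any D387A Cflar-/- Mlkl-/- library.

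By class, the fibril-forming genes had 2 higher (Col24a1 and Col27a1) and 4 lower of 10, the basement membrane genes 3 higher and 2 lower of 6, and the microfibril genes 3 higher and 2 lower of 6. The falls among these were Col5a3 (-1.83), Col1a1 (-0.47), Col5a2 (-0.42), Col5a1 (-0.41), Col4a2 (-0.68), Col4a1 (-0.54), Col6a3 (-0.42) and Col6a1 (-0.22). Both short-chain genes fell, Col18a1 fell by 0.51 on the log2 scale, and Col23a1, at 10.4, 10.4 and 6.77 RPKM, rose by 0.60. Col9a2 (0.64), Col25a1 (0.44), Col14a1 (0.41) and Col15a1 (0.32) also rose, and Col13a1 (-0.32) fell. Enterocyte markers summed to 22730 to 32230 CPM in D387A Cflar-/- Mlkl-/- Casp1-/- (6 of 7 called higher), smooth muscle markers to 4746 to 5137 CPM (7 of 8 lower at adjusted p under 0.05), and erythroid markers, with 4 of 4 called higher, ran from 247.7 to 1454 CPM within the group. Fibroblast markers were at 441.6 to 450.8 against 484.5 to 542 CPM, enteric neuron and glia markers at 161.9 to 201 against 139.4 to 153.4 CPM and cartilage and bone markers at 9.773 to 15.37 against 3.129 to 4.923 CPM (1 of 2 tested higher). Their part in the collagen values was not tested.

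Set against the controls, D387A Cflar-/- Mlkl-/- Casp1-/- intestines differed in few collagens. By edgeR 0 members were called higher and 1 lower, where 2.16% and 2.18% of all genes were, and 4 were higher and 3 lower at adjusted p under 0.05 alone, where 10.2% and 11.2% were. At an unadjusted p under 0.05 there were 5 higher and 6 lower, and limma-voom and DESeq2 likewise called 0 higher and 1 lower. Without replicate 3 of D387A Cflar-/- Mlkl-/- Casp1-/-, 1 member was called higher. Col7a1 was the gene called, at -1.27 ± 0.25 (edgeR adjusted p = 0.00198), with no library in the range of the controls. Col28a1 rose by 0.72, Col22a1 by 0.54, Col14a1 by 0.41 and Col15a1 by 0.37, while Col6a5 (-0.77) and the transmembrane Col13a1 (-0.67) fell. Endothelial markers were at 421.9 to 468.5 against 335.2 to 370.7 CPM in these controls (2 of 6 higher at adjusted p under 0.05) and enterocyte markers at 22730 to 32230 against 43140 to 49810 CPM (5 of 7 lower). Fibroblast markers (441.6 to 450.8 against 469.5 to 479.7 CPM, 1 higher and 3 lower of 8) and smooth muscle markers (4746 to 5137 against 5299 to 5758 CPM, 0 of 8 past the adjusted p) also lay below the controls in sum, as did pancreatic acinar markers (8.45 to 9.916 against 37.36 to 70.36 CPM, 2 of 4 lower). The part of these lists in the collagen values was not tested.

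**Figure D4:**
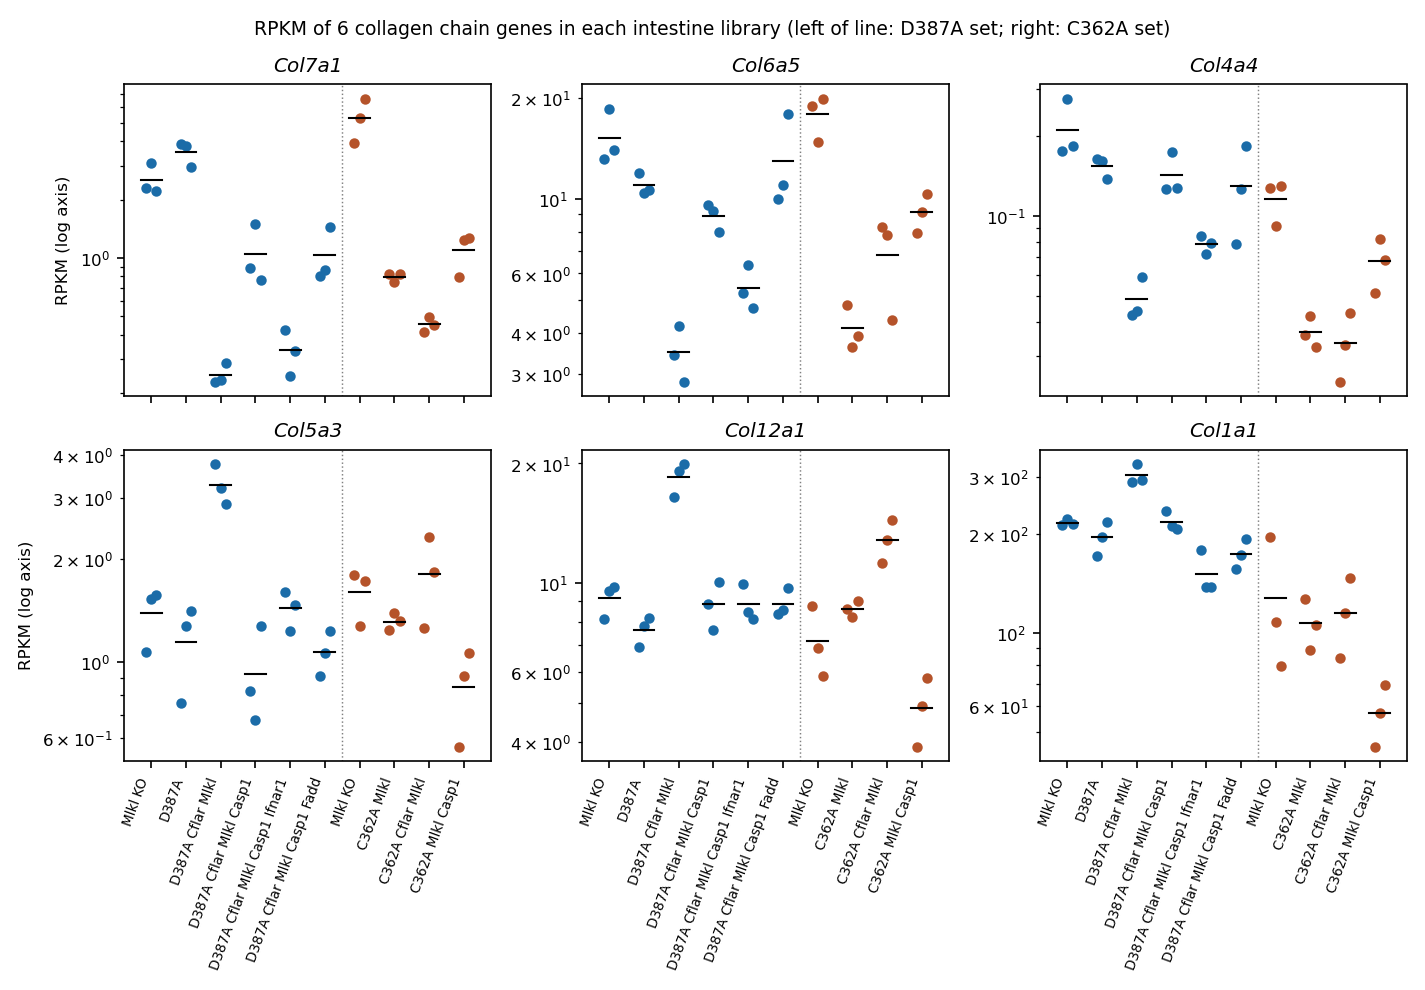
RPKM (vertical axis, log scale) of Col7a1, Col6a5, Col4a4, Col5a3, Col12a1 and Col1a1 in each of the 30 intestine libraries, by genotype. Points are libraries and lines are means of 3. Col7a1 is at 0.229 to 0.285 in D387A Cflar-/- Mlkl-/- against 2.21 to 3.08 in controls, and Col5a3 and Col12a1 peak in the same genotype.

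Further loss of Ifnar1 was accompanied by lower levels across most classes. The groups compared carry different title numbers, so Ifnar1 loss and number cannot be told apart. Against D387A Cflar-/- Mlkl-/- Casp1-/-, 0 members were called higher and 4 lower, where 3.28% and 2.03% of all genes were, and 0 were higher and 22 lower at adjusted p under 0.05 alone, where 15.5% and 15.1% were. An unadjusted p under 0.05 gave 2 higher and 26 lower, and limma-voom called 0 higher and 3 lower, DESeq2 0 and 4. Members had a median of -0.47, against -0.00044 over all genes. The falls took in 6 of 10 fibril-forming genes, 2 of 6 basement membrane genes, 6 of 6 microfibril genes and 4 of 8 fibril-associated genes. Col1a1 was at 178, 138 and 138 RPKM, below every D387A Cflar-/- Mlkl-/- Casp1-/- library (-0.53 ± 0.12, edgeR adjusted p = 0.00368).

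Col6a6, at 0.218, 0.159 and 0.208 RPKM, had the largest fall on Ifnar1 loss (-1.89 ± 0.31, edgeR adjusted p = 0.000671), and Col7a1, at 0.422, 0.246 and 0.329 RPKM, followed (-1.65 ± 0.28, edgeR adjusted p = 0.000709). Col23a1 was at 4.71, 4.51 and 4.45 RPKM (-1.02 ± 0.12, edgeR adjusted p = 0.000148). Groups did not overlap for these genes. Col9a2, a fibril-associated chain of cartilage and other tissues, was at 3.06, 2.82 and 2.81 RPKM against 6.11, 6.33 and 5.07 (-1.01 ± 0.12, edgeR adjusted p = 0.000161). Without D387A Cflar-/- Mlkl-/- Casp1-/- replicate 1 or 2, Col23a1 (-0.92 in both cases) and Col9a2 (-0.98 and -0.95) passed under the fold threshold and 2 called falls were left, and without replicate 3 of that group 1 member was called higher. Col9a2 was also under the threshold without Ifnar1-/- replicate 2 or 3 (-0.99 and -0.9955). Fibroblast markers were at 334.9 to 362.9 CPM here and 441.6 to 450.8 in D387A Cflar-/- Mlkl-/- Casp1-/-, mesothelial markers at 76.66 to 79.99 against 85.24 to 147.2 CPM and pancreatic acinar markers at 46.77 to 105.3 against 8.45 to 9.916 CPM. Endothelial markers were at 314.1 to 354.6 against 421.9 to 468.5 CPM (3 of 6 lower at adjusted p under 0.05), and enteric neuron and glia markers at 128 to 135.2 against 161.9 to 201 CPM (6 of 7 lower). Broad epithelial markers were at 5426 to 5635 against 3508 to 5311 CPM (4 of 7 higher), erythroid markers at 85.61 to 165.4 against 247.7 to 1454 CPM (4 of 4 lower) and cartilage and bone markers at 5.391 to 6.25 against 9.773 to 15.37 CPM (1 of 2 tested lower). Their part in the collagen values was not tested.

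Against the Mlkl-/- controls, D387A Cflar-/- Mlkl-/- Casp1-/- Ifnar1-/- intestines had 1 member called higher and 5 lower, where 6.76% and 5.64% of all genes were, and 2 higher and 22 lower at adjusted p under 0.05 alone, where 24.7% and 23.6% were. The median member was at -0.42, against -0.0029 over all genes. Col17a1, the hemidesmosome collagen of epithelium, was at 0.501, 0.450 and 0.431 RPKM against 0.171, 0.179 and 0.269 (1.15 ± 0.36, edgeR adjusted p = 0.015). The groups did not overlap, but adjusted p was 0.0611 and 0.0552 without control replicate 1 or 2. Col7a1 (-2.92 ± 0.28), Col6a5 at 5.24, 6.36 and 4.72 RPKM (-1.49 ± 0.20) and Col4a4 at 0.0840, 0.0723 and 0.0795 RPKM (-1.42 ± 0.28) had the largest falls, all without overlap. Col6a6 (-1.10) and Col9a2 (-1.07) completed the called falls, and without control replicate 3 they stood at -0.9972 and -0.99 and 3 falls were left. Col6a6 was also at -0.98 without Ifnar1-/- replicate 2. Fibroblast markers were at 334.9 to 362.9 against 469.5 to 479.7 CPM in these controls (2 of 8 lower at adjusted p under 0.05), smooth muscle markers at 4381 to 4968 against 5299 to 5758 (3 of 8 lower) and enteric neuron and glia markers at 128 to 135.2 against 191.7 to 205.8 (5 of 7 lower). Mesothelial markers (76.66 to 79.99 against 143.6 to 160.8 CPM, 1 of 4 lower), enterocyte markers (26040 to 38330 against 43140 to 49810 CPM, 3 lower and 1 higher of 7), erythroid markers (85.61 to 165.4 against 170.8 to 318.7 CPM, 2 of 4 lower) and cartilage and bone markers (5.391 to 6.25 against 10.6 to 13.01 CPM, 1 of 2 tested lower) were also below the controls in sum. Broad epithelial markers (5426 to 5635 against 3964 to 4474 CPM, 5 of 7 higher) and macrophage markers (509 to 580.8 against 387.3 to 415.5 CPM, 4 of 6 higher) were above them. How far they bear on the collagen values was not tested.

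Intestines with further loss of Fadd had 1 collagen gene called against the controls, Col7a1, the same gene and count as in D387A Cflar-/- Mlkl-/- Casp1-/-. Their share of collagen reads lay below that of every control. Their title number differs from those of both comparison groups, so genotype and number cannot be told apart. D387A Cflar-/- Mlkl-/- Casp1-/- Fadd-/- intestines had 0 members called higher and 1 lower against Mlkl-/-, where 2.81% and 0.975% of all genes were, and 0 higher and 3 lower at adjusted p under 0.05 alone, where 9.97% and 8.4% were. An unadjusted p under 0.05 gave 0 higher and 11 lower, limma-voom and DESeq2 each called 0 higher and 1 lower, and without Fadd-/- replicate 3 edgeR called 2 lower. Col7a1, at 0.804, 0.860 and 1.44 RPKM, was the gene called (-1.29 ± 0.25, edgeR adjusted p = 0.00166), and every library lay below the controls. Summed fibroblast markers were at 403.7 to 417.7 against 469.5 to 479.7 CPM in these controls (1 of 8 lower at adjusted p under 0.05), smooth muscle markers at 4496 to 4976 against 5299 to 5758 (0 of 8 past the adjusted p) and enteric neuron and glia markers at 158.3 to 165.1 against 191.7 to 205.8 (2 of 7 lower). Broad epithelial markers were at 5008 to 5439 against 3964 to 4474 CPM (4 of 7 higher) and macrophage markers at 475.7 to 498.1 against 387.3 to 415.5 (0 of 6 past the adjusted p). Their part in the collagen values was not tested. Against D387A Cflar-/- Mlkl-/- Casp1-/-, 0 members were called in either direction, where 2.56% and 0.877% of all genes were, and 2 were higher and 10 lower at adjusted p under 0.05 alone, where 10.5% and 7.35% were. An unadjusted p under 0.05 gave 4 higher and 19 lower, limma-voom and DESeq2 called 0, and edgeR called 1 lower without D387A Cflar-/- Mlkl-/- Casp1-/- replicate 2 or 3. The falls were led by Col22a1 (-0.61), Col14a1 (-0.58) and Col11a1 (-0.57), and the rises were Col20a1 (0.66) and Col13a1 (0.37). Enterocyte markers summed to 44890 to 51490 CPM in the Fadd-/- group against 22730 to 32230 in D387A Cflar-/- Mlkl-/- Casp1-/- (4 of 7 higher), and pancreatic acinar markers to 12.97 to 62.63 against 8.45 to 9.916 CPM (2 of 4 higher). Fibroblast markers were at 403.7 to 417.7 there against 441.6 to 450.8 CPM in D387A Cflar-/- Mlkl-/- Casp1-/- (1 higher and 1 lower of 8 at adjusted p under 0.05), endothelial markers at 329.8 to 368 against 421.9 to 468.5 CPM (3 of 6 lower), and 4 of 4 erythroid markers were lower. Whether they bear on the collagen values was not tested.

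Catalytically inactive caspase-8 C362A was also accompanied by low Col7a1 and low restricted basement membrane and microfibril chains. In C362A Mlkl-/- intestines 1 member was called higher and 9 lower against Mlkl-/-, where 10.4% and 7.55% of all 19408 genes tested were, and 1 was higher and 13 lower at adjusted p under 0.05 alone, where 22.4% and 19.7% were. The share of members called lower was thus above that of all genes and the share called higher below it. The median member was at -0.27, against 0.02 over all genes. Col7a1 was at 0.825, 0.747 and 0.825 RPKM against 3.91, 5.30 and 6.65 in controls (-2.73 ± 0.21, edgeR adjusted p = 1.14e-07). No mutant library reached the lowest control.

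Of the 6 basement membrane genes 4 fell, namely the restricted chains Col4a3, Col4a4, Col4a5 and Col4a6. Col4a3 was at 0.0338, 0.0291 and 0.00845 RPKM against 0.138, 0.149 and 0.127, from 8, 7 and 2 reads against 32, 37 and 25 (-2.51 ± 0.40, edgeR adjusted p = 0.000143). Col4a4 was at 0.0358, 0.0423 and 0.0322 RPKM against 0.127, 0.0919 and 0.129 (-1.64 ± 0.32), Col4a6 fell by 1.27 and Col4a5 by 1.11 on the log2 scale. Col4a1 and Col4a2 were not among the genes past the adjusted p. Among the microfibril genes, Col6a6 was at 0.177, 0.0971 and 0.146 RPKM against 0.987, 0.435 and 0.404 (-2.12 ± 0.52, edgeR adjusted p = 0.00409). Col6a5 was at 4.85, 3.62 and 3.90 RPKM against 19.0, 14.8 and 19.9 (-2.12 ± 0.21, edgeR adjusted p = 1.98e-06). Both genes were lower in all mutants than in any control.

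The fibril-associated type IX chains went in different directions. Col9a3 was the 1 member called higher, at 1.34, 1.82 and 1.48 RPKM against 0.459, 0.644 and 0.716 (1.36 ± 0.23, edgeR adjusted p = 0.000225), whereas Col9a2 was lower at 3.67, 2.19 and 2.41 against 7.42, 5.67 and 5.20 (-1.14 ± 0.25). Col26a1, a short secreted chain, was at 1.58, 0.856 and 1.19 RPKM against 3.01, 2.58 and 2.55 (-1.16 ± 0.23), and stood at -0.97 without C362A Mlkl-/- replicate 2. The groups did not overlap for these 3 genes. The abundant chains Col1a1 (127, 88.4 and 106 RPKM), Col4a1 (94.9, 63.4 and 83.2) and Col6a1 (128, 98.9 and 105) lay within or across the ranges of their controls (196, 108 and 79.1, then 121, 80.5 and 56.7, then 156, 109 and 105). Enterocyte markers summed to 19020 to 23470 CPM against 37440 to 60130 in these controls, with 5 of 7 called lower, and smooth muscle markers to 3373 to 4686 against 2727 to 4406 CPM, with ranges that overlap. Fibroblast markers summed to 347.7 to 408.4 against 399.6 to 487.8 CPM, and 2 of 8 were lower (Fbln1 at -0.94 and Dpt at -0.78) and 1 higher at adjusted p under 0.05. Enteric neuron and glia markers summed to 99.87 to 132.4 against 127.5 to 185 CPM, with 2 of 7 lower (S100b at -1.39 and Ret at -0.53). Mesothelial markers were at 67.67 to 90.32 against 130.1 to 138.6 CPM, macrophage markers at 495.8 to 558.5 against 356.3 to 416.8 CPM (4 of 6 higher at adjusted p under 0.05) and broad epithelial markers at 4834 to 5982 against 3714 to 4340 CPM (5 of 7 higher), and erythroid markers at 97.34 to 145.6 against 146.6 to 392.4 CPM (3 of 4 lower). Their part in the collagen values was not tested.

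C362A Cflar-/- Mlkl-/- intestines had 0 members called higher and 9 lower against Mlkl-/-, where 13.4% and 11.2% of all genes were, and 2 higher and 16 lower at adjusted p under 0.05 alone, where 27.9% and 24.9% were. With an unadjusted p under 0.05 there were 3 higher and 16 lower, and limma-voom and DESeq2 each called 0 higher and 10 lower. Col7a1 was at 0.415, 0.491 and 0.451 RPKM (-3.54 ± 0.22, edgeR adjusted p = 1.46e-08), the largest fall of any member in any comparison here. Col6a6 was at 0.0309, 0.254 and 0.164 RPKM (-2.01 ± 0.51, edgeR adjusted p = 0.00439), and Col9a1, a further type IX chain, fell to 3, 4 and 7 reads from 25, 18 and 14 (-1.9964 ± 0.58, edgeR adjusted p = 0.0102). No mutant library overlapped a control for these 3 genes.

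The other called falls were Col4a3 (-1.94), Col4a4 (-1.77), Col6a5 (-1.39), Col4a6 (-1.29), Col4a5 (-1.08) and Col9a2 (-1.05), which took in the 4 restricted basement membrane chains. Col4a5 stood at -0.99 and -0.98, and Col9a2 at -0.90 and -0.88, without C362A Cflar-/- Mlkl-/- replicate 1 or control replicate 1. The rises at adjusted p alone were Col9a3 (0.88) and Col12a1, which was at 11.2, 12.9 and 14.4 RPKM against 8.77, 6.86 and 5.83 (0.85 ± 0.16, edgeR adjusted p = 0.000543). Col12a1 was called, at 1.03, without control replicate 1, and 1 member was called without control replicate 3. Enterocyte markers summed to 2815 to 9165 against 37440 to 60130 CPM in these controls, smooth muscle markers to 6274 to 7335 against 2727 to 4406 CPM and enteric neuron and glia markers to 66.96 to 120.1 against 127.5 to 185 CPM. Cartilage and bone markers were at 1.859 to 3.364 against 7.105 to 8.671 CPM (1 of 3 tested lower). The sums of fibroblast markers (338.9 to 444.1 against 399.6 to 487.8 CPM) and macrophage markers (351.6 to 412.5 against 356.3 to 416.8 CPM) overlapped, but members went both ways, with 3 higher and 3 lower of 8 fibroblast markers (Dpt at -1.31 and Fbln1 at -0.82) and 5 higher and 1 lower of 6 macrophage markers (C1qa at 1.46, Csf1r at -1.69). The part of all these in the collagen values was not tested. Relative to C362A Mlkl-/-, loss of Cflar gave 0 members called in either direction, where 1.45% and 4.62% of all genes were, and 2 higher and 1 lower at adjusted p under 0.05 alone, where 6.95% and 12.4% were. These were Col6a5 (0.72), Col12a1 (0.58) and Col7a1 (-0.82), while an unadjusted p under 0.05 gave 2 higher and 3 lower and limma-voom and DESeq2 called 0. Against C362A Mlkl-/-, smooth muscle markers were at 6274 to 7335 against 3373 to 4686 CPM (3 of 8 higher), enterocyte markers at 2815 to 9165 against 19020 to 23470 (6 of 7 lower), macrophage markers at 351.6 to 412.5 against 495.8 to 558.5 (2 of 6 lower) and cartilage and bone markers at 1.859 to 3.364 against 5.425 to 9.181 (1 of 3 tested lower), and their part was not tested.

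The change of C362A Cflar-/- Mlkl-/- and that of D387A Cflar-/- Mlkl-/-, each from its own controls, were compared by an interaction contrast over the 30 intestine libraries. It called 0 of 41 members in either direction, where 0.0662% and 0.0102% of all 19643 genes were, and the count at an unadjusted p under 0.05 was 2 higher and 5 lower, with 0 called by limma-voom. A difference between the 2 mutants in any collagen was therefore not shown, which does not make them equal.

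C362A Mlkl-/- Casp1-/- intestines had more collagen genes lower at adjusted p under 0.05 alone than any other pair of groups compared here, though not more called lower. Against Mlkl-/-, 0 members were called higher and 7 lower, where 6.79% and 3.73% of all genes were, and 1 was higher and 29 lower at adjusted p under 0.05 alone, where 19% and 17.1% were. An unadjusted p under 0.05 gave 1 higher and 33 lower, and limma-voom and DESeq2 each called 0 higher and 8 lower. The median member was at -0.79, against -0.0014 over all genes. The 29 included 6 of 10 fibril-forming, 5 of 6 basement membrane, 6 of 6 microfibril and 5 of 8 fibril-associated genes. Col1a1 was at 44.9, 56.9 and 69.5 RPKM against 196, 108 and 79.1 (-1.16 ± 0.30, edgeR adjusted p = 0.00862), Col4a1 at 37.6, 47.9 and 52.0 against 121, 80.5 and 56.7 (-0.91 ± 0.27) and Col6a1 at 60.5, 73.7 and 88.1 against 156, 109 and 105 (-0.74 ± 0.19). Every mutant library lay below every control for these 3 genes, but control replicate 1 was far above the other controls.

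That control weighed on the size of the decrease. Without it Col1a1 was at -0.74 (edgeR adjusted p = 0.0429) and 3 members were called lower in place of 7, as also without C362A Mlkl-/- Casp1-/- replicate 1. The count was 16 without C362A Mlkl-/- Casp1-/- replicate 3, control replicate 2 or control replicate 3, and 18 on raw library totals. The largest falls were again in Col7a1, at 0.795, 1.24 and 1.27 RPKM (-2.26 ± 0.20, edgeR adjusted p = 1.55e-06), then Col9a1 (-1.99 ± 0.59, from 2, 9 and 2 reads) and Col6a6 at 0.175, 0.150 and 0.299 RPKM (-1.55 ± 0.50). The groups did not overlap for these genes. Col9a1 had an adjusted p of 0.0632 without control replicate 1 and of 0.0743 and 0.0689 without mutant replicate 1 or 3. Col6a6 had an adjusted p of 0.142 without control replicate 1 and of 0.083 and 0.0988 without mutant replicate 1 or 2. The other called genes were Col13a1 (-1.19), Col26a1 (-1.14) and Col23a1 (-1.03), of which Col23a1 was at -0.87 without control replicate 1 and at -0.84 without mutant replicate 1, and Col26a1 at -0.98 without mutant replicate 1. Enteric neuron and glia markers, which were at 127.5 to 185 CPM in controls and 78.28 to 96.16 here (5 of 7 called lower), and fibroblast markers (254.3 to 362.5 against 399.6 to 487.8 CPM, 2 of 8 lower at adjusted p under 0.05) moved along, while the sum of smooth muscle markers (1692 to 3409 against 2727 to 4406 CPM, 3 of 8 lower) overlapped that of the controls. Broad epithelial markers (5761 to 6021 against 3714 to 4340 CPM, 2 of 7 higher) and macrophage markers (530.1 to 572.2 against 356.3 to 416.8 CPM, 3 of 6 higher) lay above the controls, and mesothelial markers (60.36 to 116.8 against 130.1 to 138.6 CPM, 1 of 4 lower) below. The bearing of these lists on the collagen values was not tested.

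Casp1 loss in C362A Mlkl-/- intestines gave 2 members called higher and 1 lower, where 5.6% and 5.72% of all genes were, and 3 higher and 11 lower at adjusted p under 0.05 alone, where 17.9% and 15.5% were. Members had a median of -0.44, against -0.02 over all genes. Col6a5 was at 7.91, 9.14 and 10.4 RPKM against 4.85, 3.62 and 3.90 (1.15 ± 0.21, edgeR adjusted p = 0.000841). Col4a3 was at 0.0799, 0.0681 and 0.0621 RPKM against 0.0338, 0.0291 and 0.00845 (1.53 ± 0.43, edgeR adjusted p = 0.0132), with 1.14 and an adjusted p of 0.0598 without C362A Mlkl-/- replicate 3. Col28a1 was at 0.351, 0.393 and 0.493 RPKM against 0.906, 0.926 and 0.880 (-1.13 ± 0.25, edgeR adjusted p = 0.00358). None of these 3 genes had overlapping groups.

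The other falls on Casp1 loss in this background took in Col4a2 (-0.94), Col1a1 (-0.91), Col12a1 (-0.83), Col4a1 (-0.81), Col5a1 (-0.76) and Col6a1 (-0.58). Without C362A Mlkl-/- replicate 2 or C362A Mlkl-/- Casp1-/- replicate 3, 3 members were called lower, among them Col1a1 at -1.03 and -1.08. Enterocyte markers rose to 57490 to 72990 CPM, with 6 of 7 called higher, and smooth muscle markers summed to 1692 to 3409 against 3373 to 4686 CPM (4 of 8 lower at adjusted p under 0.05). Fibroblast markers were at 254.3 to 362.5 against 347.7 to 408.4 CPM (3 lower and 1 higher of 8) and enteric neuron and glia markers at 78.28 to 96.16 against 99.87 to 132.4 CPM (2 of 7 lower). Macrophage markers (530.1 to 572.2 against 495.8 to 558.5 CPM, 4 lower and 1 higher of 6) and broad epithelial markers (5761 to 6021 against 4834 to 5982 CPM, 3 lower and 1 higher of 7) were not lower in sum. The part of these markers in the collagen values was not tested.

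The change on Casp1 loss was compared between the backgrounds, C362A Mlkl-/- and D387A Cflar-/- Mlkl-/-, which differ in the Casp8 allele and in Cflar together. Its D387A side also crosses title numbers. The interaction contrast called 1 member higher and 4 lower (the C362A change minus the D387A change), where 0.825% and 4.9% of all genes were. Col7a1 changed by 2.07 in D387A Cflar-/- Mlkl-/- and by 0.46 in C362A Mlkl-/-, a difference of -1.63 ± 0.37 (edgeR adjusted p = 0.00427). Col28a1 changed by -0.03 and by -1.13, a difference of -1.13 ± 0.27 (edgeR adjusted p = 0.00654). Both calls were kept whichever library was left out.

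Less steady were Col9a3, Col25a1 and Col5a3. Col9a3 changed by 0.43 and by -0.60 (difference -1.05 ± 0.35, edgeR adjusted p = 0.0417), Col25a1, a chain of neurons, by 0.44 and by -0.57 (difference -1.04 ± 0.29, edgeR adjusted p = 0.0165), and Col5a3 by -1.83 and by -0.63 (difference 1.17 ± 0.35, edgeR adjusted p = 0.0241). Col9a3 lost its call without replicate 2 or 3 of C362A Mlkl-/- or of D387A Cflar-/- Mlkl-/-, or replicate 1 or 2 of C362A Mlkl-/- Casp1-/- or of D387A Cflar-/- Mlkl-/- Casp1-/- (adjusted p 0.0579 to 0.106). Col5a3 lost it without D387A Cflar-/- Mlkl-/- replicate 1, D387A Cflar-/- Mlkl-/- Casp1-/- replicate 1 or 2, or C362A Mlkl-/- Casp1-/- replicate 2 or 3 (adjusted p 0.0561 to 0.0758). Col25a1 lost it without C362A Mlkl-/- Casp1-/- replicate 1, D387A Cflar-/- Mlkl-/- replicate 3 or D387A Cflar-/- Mlkl-/- Casp1-/- replicate 2, at -0.84, -0.91 and -0.9974. Col23a1 was called lower as well without replicate 3 of D387A Cflar-/- Mlkl-/- Casp1-/- (-1.105, edgeR adjusted p = 0.0012). The same held without replicate 3 of C362A Mlkl-/- Casp1-/- (-1.114, edgeR adjusted p = 0.0044). With 1 library left out, the counts ran from 0 to 1 higher and from 2 to 6 lower. Enterocyte markers also differed in this contrast, with 5 of 7 called lower.

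**Figure D5:**
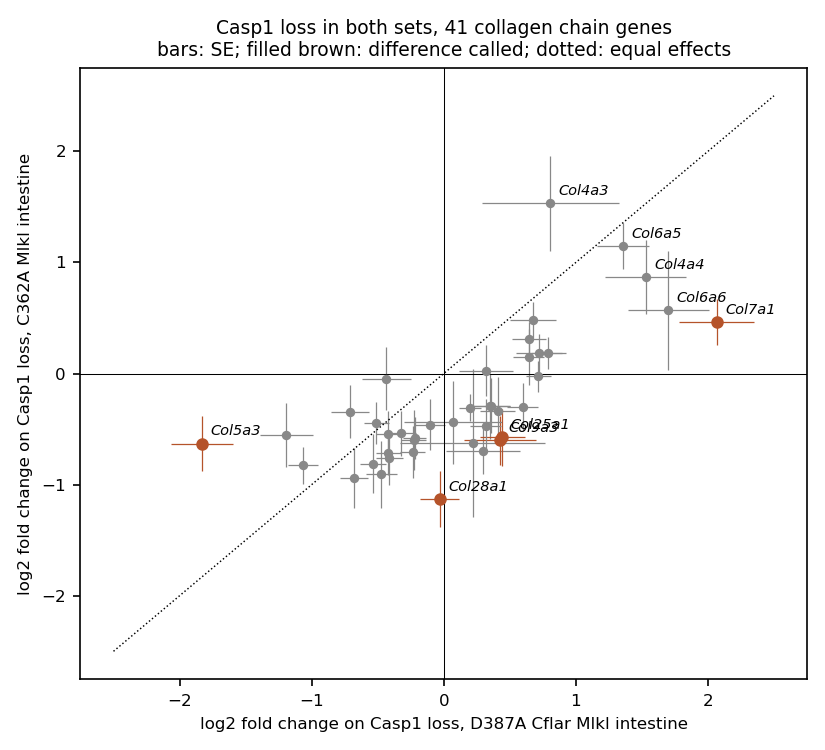
Log2 fold change on Casp1 loss in D387A Cflar-/- Mlkl-/- intestines (horizontal axis) and in C362A Mlkl-/- intestines (vertical axis) for the collagen genes tested in both sets, with bars of 1 SE. Brown points are the 5 genes whose difference was called. Col7a1 lies at 2.07 on the horizontal axis and 0.46 on the vertical axis.

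MEFs, which had the highest collagen levels, showed no called collagen difference between D387A Cflar-/- Mlkl-/- and Mlkl-/-. Here 42 of 44 members were tested, Col6a5 and Col13a1 being too low. By edgeR 0 were called in either direction, where 0.0711% and 0% of all 15465 genes were, and 0 passed the adjusted p alone, where 0.097% and 0.0129% did. An unadjusted p under 0.05 gave 1 higher and 6 lower, limma-voom called 0 and DESeq2 called 1 higher and 0 lower, and without mutant replicate 1 edgeR called 1 lower. The median member was at -0.22, against -0.0016 over all genes.

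Col1a1 was at 1859, 1694 and 1644 RPKM in mutant MEFs against 1864, 1436 and 1826, and Col12a1 at 226, 247 and 282 against 276, 264 and 315. Col7a1 was at 4.48, 4.82 and 4.75 RPKM against 4.23, 3.90 and 9.55, and Col5a3 at 18.8, 25.0 and 28.7 against 17.1, 22.4 and 24.8. The groups overlapped for all 4 genes. Between libraries of the same number, which pair in MEFs, Col12a1 was lower and Col5a3 higher in the mutant of all 3 pairs, with 0 members called in either direction in the fit with the replicate block. The pair Col4a3 and Col4a4 was low in mutant replicates 2 and 3 only, with Col4a3 at 0.501, 0.111 and 0.132 RPKM against 0.605, 0.510 and 0.876 (-1.43 ± 0.52, edgeR adjusted p = 0.691) and Col4a4 at 0.501, 0.117 and 0.169 against 0.392, 0.387 and 0.570. Col6a4 was at 0.167, 0.365 and 0.362 RPKM against 0.126, 0.0757 and 0.0890 (1.61 ± 0.38, edgeR adjusted p = 0.350). Replicate 1 of both groups was highest in the cartilage chains, with Col2a1 at 126 and 154 RPKM against 29.8 to 33.9 in the other MEFs, and in Col9a1, Col9a2, Col9a3, Col10a1 and Col11a1. Cartilage and bone markers summed to 64.83 to 110.1 CPM in control and 55.86 to 103.3 CPM in mutant MEFs.

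An interaction contrast over the 18 D387A intestines and 6 MEF libraries compared the change of D387A Cflar-/- Mlkl-/- between MEFs and intestine. It called 3 of 44 members higher and 5 lower (the MEF change minus the intestine change), where 8.01% and 7.3% of all 18862 genes were. Col7a1 changed by -0.32 in MEFs and by -3.34 in intestine in the separate fits, a difference of 2.98 ± 0.44 (edgeR adjusted p = 1.47e-05). Col6a4 differed by 2.42 ± 0.32, on top of MEF levels of at most 0.365 RPKM. The remaining gene among the 3 is Col6a5, which was too low to be tested in MEFs alone (30 and 26 reads in all in the MEF groups) and entered this fit through the intestine libraries. Its value of 2.12 ± 0.70 is therefore no measure of a difference between tissues, and its call was lost with limma-voom (adjusted p = 0.0884) and without mutant MEF replicate 3 (adjusted p = 0.178). The 5 lower genes were Col28a1 (-1.42 ± 0.34), Col8a1 (-1.23 ± 0.28), Col12a1 (-1.22 ± 0.18), Col5a3 (-1.10 ± 0.31) and Col4a2 (-1.0006 ± 0.19). Col4a2 passed under the fold threshold without D387A Cflar-/- Mlkl-/- replicate 3, D387A-set control replicate 1 or 3, mutant MEF replicate 1 or 2, or control MEF replicate 3 (-0.77 to -0.9985), with RLE size factors (-0.96) and with limma-voom (-0.98). With the replicate number as a block within the MEFs, a fit added after seeing the data, it was at -0.98, and the other 7 calls were kept. Col5a3 did so without D387A Cflar-/- Mlkl-/- replicate 1, D387A-set control replicate 1, mutant MEF replicate 1 or control MEF replicate 3 (-0.93 to -0.98), and without D387A-set control replicate 1 the count was 3 lower.

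Genes that fold, crosslink and bind collagen were counted as lists, to be read beside the shares of all genes tested. In D387A Cflar-/- Mlkl-/- against controls, 4 of the 25 folding and processing genes tested were called higher and 1 lower, with 12 higher and 3 lower at adjusted p under 0.05, where 29.9% and 29.5% of all genes were. Prolyl 4-hydroxylase, which makes the hydroxyproline that steadies the helix, split by subunit. The catalytic subunit gene P4ha1 was at 36.7, 46.5 and 37.4 RPKM against 13.8, 13.9 and 14.7 (1.51 ± 0.12, edgeR adjusted p = 9.07e-09) and P4ha2 at 15.9, 23.6 and 17.5 against 5.88, 5.75 and 5.71 (1.72 ± 0.16, edgeR adjusted p = 6.87e-08). P4hb, its partner subunit and a general disulfide isomerase, fell by 1.23 on the log2 scale, and Plod2, a lysyl hydroxylase, rose by 1.16. Of the 5 crosslinking genes 4 were higher, and Lox, lysyl oxidase, was called at 1.33. Of 9 collagen receptor genes 5 were higher with Itga2 called at 1.53, of 13 fibril partners 7 were higher and 2 lower with Fn1 (1.23), Thbs1 (1.12) and Tnc (1.07) called, and of 15 other basement membrane genes 10 were higher and 2 lower. In this last list Lama1 (1.88) was among the called rises and Lamc3 (-1.49) was the called fall. Among 7 profibrotic signal genes 3 were higher and 2 lower, with Ccn2 called at 2.21.

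Casp1 loss in D387A Cflar-/- Mlkl-/-, a comparison that shares those mutant libraries, gave more falls than rises in these lists. Folding and processing genes had 2 higher and 11 lower, crosslinking 0 and 4, receptors 0 and 3, fibril partners 1 and 7, other basement membrane genes 3 and 9 and profibrotic signals 1 and 2, all at adjusted p under 0.05, where 24.5% and 22.5% of all genes were. P4ha2 (-1.20), Lox (-1.13), Fn1 (-1.22) and Ccn2 (-2.1967) were called lower, and Lamc3 (1.13) higher. In C362A Cflar-/- Mlkl-/- the counts were 7 higher and 2 lower for folding, 2 and 0 for crosslinking, 4 and 0 for receptors, 5 and 2 for fibril partners, 5 and 2 for other basement membrane genes and 3 and 2 for profibrotic signals, where 27.9% and 24.9% of all genes were, with P4ha2 (1.25), Lox (1.25), Thbs1 (1.45) and Ccn2 (2.23) called. Ccn2 was uneven in that group, at 12.1, 72.6 and 61.7 RPKM against 11.3, 9.34 and 10.7, with replicate 1 near the controls. In C362A Mlkl-/- the counts were 2 and 1 for folding, 0 and 0 for crosslinking, 3 and 0 for receptors, 3 and 3 for fibril partners, 5 and 2 for other basement membrane genes and 2 and 2 for profibrotic signals, where 22.4% and 19.7% of all genes were. The inhibitory receptor gene Lair1 (2.07) and Ccn2 (1.64) were among those called, Ccn2 at 29.1, 35.6 and 32.9 RPKM against 11.3, 9.34 and 10.7. P4ha2 was at 0.19 ± 0.20 (edgeR adjusted p = 0.472) and Lox at 0.06 ± 0.19 (edgeR adjusted p = 0.834) there. In MEFs, 0 genes of these lists were called by edgeR, and at adjusted p under 0.05 alone 1 fibril partner was lower.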

How the data were processed

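RNA was sequenced from 30 whole intestines and 6 MEF cultures, as 50-base reads. The authors aligned the reads to GRCm38 (mm10) with GSNAP and deposited, per library, the number of uniquely mapped exonic reads of each gene (raw counts), the width of the gene and an RPKM value. The counting program, annotation and strand setting are not given in the sources used here, and the sources differ on the library kit. The deposited RPKM were made by the authors on a total larger than the sum over genes (genes made up 75.6% to 88.6% of it) and were not used. RPKM printed here were computed from the counts and deposited widths on TMM-scaled library sizes within each set.

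Each set was fitted on its own over all genes, and interactions on 2 sets together, with edgeR 4.0.16 (filterByExpr with a minimum count of 10 and minimum total of 15, TMM, quasi-likelihood F test, Benjamini-Hochberg adjustment) in R 4.3.3. SE is the fold change over the square root of F. The prior count was 0.125. The script was tested on simulated counts with known changes. Alternatives were limma-voom 3.58.1, DESeq2 1.42.0, other scalings, filters and prior counts, fits on the compared groups only, a replicate block and leaving out each library. Replicate numbers were checked for pairing by the correlation of deviations from group means. In MEFs 3 of 3 same-numbered pairs were over 0.1 (r 0.29 to 0.464) and the numbers were taken as pairs. In intestines 12 of 45 and 4 of 18 were over 0.1 and the numbers were not. Replicates differed by 5.34 to 77.2 times the sampling noise over 36 pairs, so no library was counted as a copy. Depth per library is given with the results, and counting intervals are not given because replicate spread exceeds them.

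The collagen genes, the marker and pathway lists and their tests were chosen with earlier results of these data known. Members tested were counted by class. Per-library values were given for the leading gene of each class (by mean RPKM over all 36 libraries) and, per comparison, for the 3 largest rises and falls among called genes without overlap, and pathway lists were given by counts with at most 4 called genes, of which 1 is not reported here. Exon lengths and repeats were computed from GENCODE M21 transcripts and their translation. IDs of 52489 of 52636 genes matched that annotation. Columns of the files that were not analysed are the deposited RPKM only.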

Additional observations from a re-analysis of the deposited data

Results flagged for a closer look

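Differences between backgrounds or tissues in the response of a collagen gene were called for 13 gene and contrast pairs. For Casp1 loss, the change in C362A Mlkl-/- minus that in D387A Cflar-/- Mlkl-/- was -1.63 for Col7a1, -1.13 for Col28a1, -1.05 for Col9a3, -1.04 for Col25a1 and 1.17 for Col5a3 on the log2 scale. For D387A Cflar-/- Mlkl-/- against Mlkl-/-, the change in MEFs minus that in intestine was 2.98 for Col7a1, 2.42 for Col6a4, -1.42 for Col28a1, -1.23 for Col8a1, -1.22 for Col12a1, -1.10 for Col5a3 and -1.0006 for Col4a2. Each was picked out because the interaction contrast itself passed the test. The contrast also passed for Col6a5, at 2.12, but this gene was too low to be tested in MEFs alone and entered through the intestine libraries, so the value does not measure a difference between tissues. Its call was lost with limma-voom (adjusted p = 0.0884) and without mutant MEF replicate 3 (adjusted p = 0.178). The value for Col6a4 rests on few reads in MEFs, at most 78 per library.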

How the results depend on the processing

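Of the 54 calls of a collagen gene within a set, 54 were kept with DESeq2, with RLE size factors, without a filter, with a prior count of 2 and in fits of the compared groups alone, and 53 with limma-voom. With the replicate block all 54 were kept and no count of calls changed (the MEF counts, where the numbers pair, were 0 higher and 0 lower in the blocked fit as in the unblocked one). A minimum mean of 50 reads kept 41 and raw library totals kept 49. The calls missing at 50 reads were of genes not tested, except Col12a1 in D387A Cflar-/- Mlkl-/- against controls, which stood at 0.9965. The MEF interaction, outside these 54, had 3 higher and 4 lower with the replicate block within the MEFs, chosen after seeing the data. No result reversed.

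On raw library totals, C362A Cflar-/- Mlkl-/- against controls had 2 called higher (0 with TMM), Casp1 loss in C362A Mlkl-/- had 1 higher (2) and 6 lower (1), C362A Mlkl-/- Casp1-/- against controls had 18 lower (7), and Fadd loss had 1 lower (0). Raw totals moved the median of all genes by up to 0.305 on the log2 scale. With a minimum mean of 50 reads, Casp1 loss in C362A Mlkl-/- had 1 higher (2), D387A Cflar-/- Mlkl-/- against controls 1 higher (2) and 2 lower (4), and the Ifnar1-/- group against controls 0 higher (1). MEFs had 1 higher (0) with DESeq2 and without a filter.

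Leaving out 1 library at a time gave 0 to 1 higher and 7 to 10 lower for C362A Cflar-/- Mlkl-/- against controls, and 9 to 10 lower for C362A Mlkl-/- against controls. It gave 1 to 2 higher and 1 to 3 lower for Casp1 loss in C362A Mlkl-/-, and 3 to 16 lower for C362A Mlkl-/- Casp1-/- against controls. D387A Cflar-/- Mlkl-/- against controls had 1 to 2 higher and 3 to 5 lower, and with Casp1 loss added 0 to 1 higher. Casp1 loss in D387A Cflar-/- Mlkl-/- had 4 to 5 higher and 2 to 3 lower. Fadd loss had 0 to 1 lower and the Fadd-/- group against controls 1 to 2 lower. Ifnar1 loss had 0 to 1 higher and 2 to 6 lower, and the Ifnar1-/- group against controls 0 to 1 higher and 3 to 7 lower. MEFs had 0 to 1 lower. The Casp1 interaction had 0 to 1 higher and 2 to 6 lower, and the MEF interaction 3 to 4 higher and 3 to 6 lower. The cause of these shifts was not tested. Depth limits the scarce chains most, such as Col4a3 and Col9a1 with under 10 reads in several mutant libraries.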
